A study of Mus musculus with 18 samples.

Results

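The genes described here are the enzymes that carry glucose carbon from triose phosphate to pyruvate, Tpi1, Gapdh, Pgk1, Pgam1, Eno1 and Pkm, together with the lactate dehydrogenase genes Ldha and Ldhb. They were chosen by gene symbol, and all 8 of 8 were found in each of the 3 deposited tables, which held 13578 genes for embryonic stem cells (ESCs), 13518 for trophoblast stem cells (TSCs) and 11538 for extra-embryonic endoderm stem (XEN) cells, 14804 different genes in all. Each of the 8 genes passed the filter on low values (TPM above 0.4 in at least 2 of 6 libraries) in all 3 cell types.

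Bulk RNA-seq was performed on mouse ESCs of the E14 line, on TSCs and on XEN cells, and the labels give no line name for the last 2. These cells are culture models of the epiblast, the trophectoderm and the primitive endoderm. Each was kept in normoxia (20% O2) or moved to hypoxia (2% O2), and the hypoxic cells were sampled after 2 or 7 days. With a single normoxic group for each cell type and 2 biological replicates in a group, this made 18 libraries. No normoxic group was labelled with a matching day, so days in culture and days of hypoxia cannot be told apart. Within a cell type, no genetic change or further agent separated the groups. Per the study's methods the ESCs were grown without feeders, the TSCs on feeder fibroblasts and the XEN cells in medium partly conditioned by such fibroblasts. The media differed too, with leukemia inhibitory factor in that of ESCs and a fibroblast growth factor with heparin in that of TSCs. Between cell types, the effects of cell type and medium thus cannot be told apart.

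Lower glycolysis turns triose phosphates into pyruvate and yields ATP and NADH on the way. When oxygen limits respiration, lactate dehydrogenase regenerates NAD+ by reducing pyruvate to lactate, and its A subunit (Ldha) is generally linked to lactate production and its B subunit (Ldhb) to the use of lactate. Several of these genes are textbook targets of the hypoxia-inducible factors, which bind a short DNA core, ACGTG or GCGTG, in the hypoxia response element.

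Promoter windows from RefSeq (build GRCm38.p6, 250 bases before to 50 after each annotated start) were matched by symbol for all 8 genes, 12 windows in all. Windows of 4 genes are printed because Tpi1, Pgk1 and Ldha were called on both hypoxic days when the cell types were averaged and Ldhb was not. Capitals mark each ACGTG or GCGTG on either strand, where a match on the reverse strand reads CACGT or CACGC and where CACGTG counts as a match on each strand.
Tpi1, chr6:124814109-124814408, reverse strand: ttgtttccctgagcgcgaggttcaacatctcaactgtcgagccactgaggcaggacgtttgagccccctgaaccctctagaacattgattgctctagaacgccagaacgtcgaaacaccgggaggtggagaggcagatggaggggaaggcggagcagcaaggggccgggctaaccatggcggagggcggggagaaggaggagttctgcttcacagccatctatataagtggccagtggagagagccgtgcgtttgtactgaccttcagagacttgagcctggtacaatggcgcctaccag
Pgk1, chrX:106186850-106187149, forward strand: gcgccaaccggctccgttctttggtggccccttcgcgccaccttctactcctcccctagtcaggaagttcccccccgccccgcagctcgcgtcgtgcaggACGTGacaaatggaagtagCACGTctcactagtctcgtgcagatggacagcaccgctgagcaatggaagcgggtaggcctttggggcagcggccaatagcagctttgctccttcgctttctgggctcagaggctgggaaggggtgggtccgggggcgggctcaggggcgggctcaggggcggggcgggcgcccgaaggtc
Ldha, chr7:46845554-46845853, forward strand: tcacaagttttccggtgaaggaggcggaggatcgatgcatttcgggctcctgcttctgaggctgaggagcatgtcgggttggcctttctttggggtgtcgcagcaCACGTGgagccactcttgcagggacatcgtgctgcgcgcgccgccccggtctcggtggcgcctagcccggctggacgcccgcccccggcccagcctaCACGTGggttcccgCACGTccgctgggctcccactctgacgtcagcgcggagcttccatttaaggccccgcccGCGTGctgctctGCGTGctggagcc
Ldhb, chr6:142507908-142508207, reverse strand: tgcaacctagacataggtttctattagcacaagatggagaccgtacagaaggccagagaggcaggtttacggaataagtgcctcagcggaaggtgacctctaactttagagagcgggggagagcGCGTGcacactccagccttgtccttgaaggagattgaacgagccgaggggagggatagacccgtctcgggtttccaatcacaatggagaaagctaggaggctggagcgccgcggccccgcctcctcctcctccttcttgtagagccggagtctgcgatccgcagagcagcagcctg

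The Ldha window held 7 matches, 5 of ACGTG and 2 of GCGTG, from base -145 to base 41 relative to the start. Of 32851 RefSeq windows of the same length, 0.301% held at least 7, 20.6% at least 2 and 43.8% at least 1. The Pgk1 window held 2 matches of ACGTG, 19.6% of all windows holding at least 1 of that core, and the Ldhb window held 1 of GCGTG, as did 32.4% of all windows. The Tpi1 window held neither core. Among the windows not printed, Gapdh and Pgam1 had 3 matches each, the 3 windows of Eno1 had 2 each, the second window of Ldha had 2, and the 2 windows of Pkm had 0 and 2.

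The genes lie on 6 chromosomes (GRCm38): Tpi1 at chr6:124810586-124814296, Gapdh at chr6:125161715-125166467 and Ldhb at chr6:142490249-142507957, Ldha at chr7:46841475-46855627, Eno1 at chr4:150236721-150248879, Pkm at chr9:59656368-59679375, Pgam1 at chr19:41911923-41918660 and Pgk1 at chrX:106187100-106203699. All are annotated as protein-coding. Because processed copies of glycolytic genes are common, each principal transcript was cut into 75-base stretches, the read length of the study. Of these stretches, 80.3% in Gapdh, 67.5% in Pgk1, 65.4% in Eno1 and 40.6% in Pgam1 occurred in the transcript of another annotated gene, against 19.6% in Pkm, 16.7% in Ldhb, 5.38% in Ldha and 2.48% in Tpi1. Values of the first 4 genes are therefore less certain, since reads could have been split with or lost to copies. For Eno1 the nearest copy was Eno1b, which is in the tables and took between 7.15% and 17.2% of the reads assigned to the pair.

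The libraries held between 35592641 and 75204029 recovered reads. The 8 genes had from 1104 reads (Ldhb, XEN cells in normoxia) to 303965 reads in a library, so that counting error was at most 3.01% of a value. The summed TPM of 6 ESC markers was at least 6442 in ESCs, between 248 and 1289 in TSCs (5 of 6 in the table) and between 624 and 1194 in XEN cells (2 of 6). That of 6 TSC markers was at least 701 in TSCs and at most 147 elsewhere, and that of 7 XEN markers at least 2376 in XEN cells and at most 25.1 elsewhere. The summed TPM of a list of 8 fibroblast markers was between 24.3 and 41.5 in ESCs, where 5 of 8 were in the table, and at most 0.65 in XEN cells, where 2 of 8 were. In TSCs, where all 8 were in the table, it was 1857 and 262 in normoxia, 204 and 956 on day 2, then 431 and 259.8 on day 7. These sums are of deposited TPM, which was divided by the whole span of a gene, so genes of short span weigh more. They were not tested between cell types, since each table was normalized on its own. In bulk RNA, fewer cells of a type and less RNA per cell cannot be told apart.

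To place the genes against each other, reads were scaled by exon length, because the deposited TPM had been divided by the whole span of a gene. On this scale and in normoxia, Gapdh, the enzyme that makes the NADH of glycolysis, was the highest in XEN cells (mean 3151 TPM per exon length, n = 2), was level with Pkm in ESCs (2564 and 2485, with overlapping replicates) and lay below Pkm in TSCs (1179 and 1411). Ldha came next to these in all 3 cell types, at 1504 in ESCs, 1155 in TSCs, where its replicates overlapped those of Gapdh, and 1161 in XEN cells. Ldhb was the lowest in ESCs (283) and XEN cells (76.5), and in TSCs it overlapped Pgam1 at the bottom (256 and 241). With the length of the principal transcript in place of the exon union, Gapdh ranked first in all 3 cell types, and 2 genes (ESCs), 4 (TSCs) and 2 (XEN cells) changed place. Each table was normalized on its own, so levels were not tested between cell types.

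**Figure D1:**
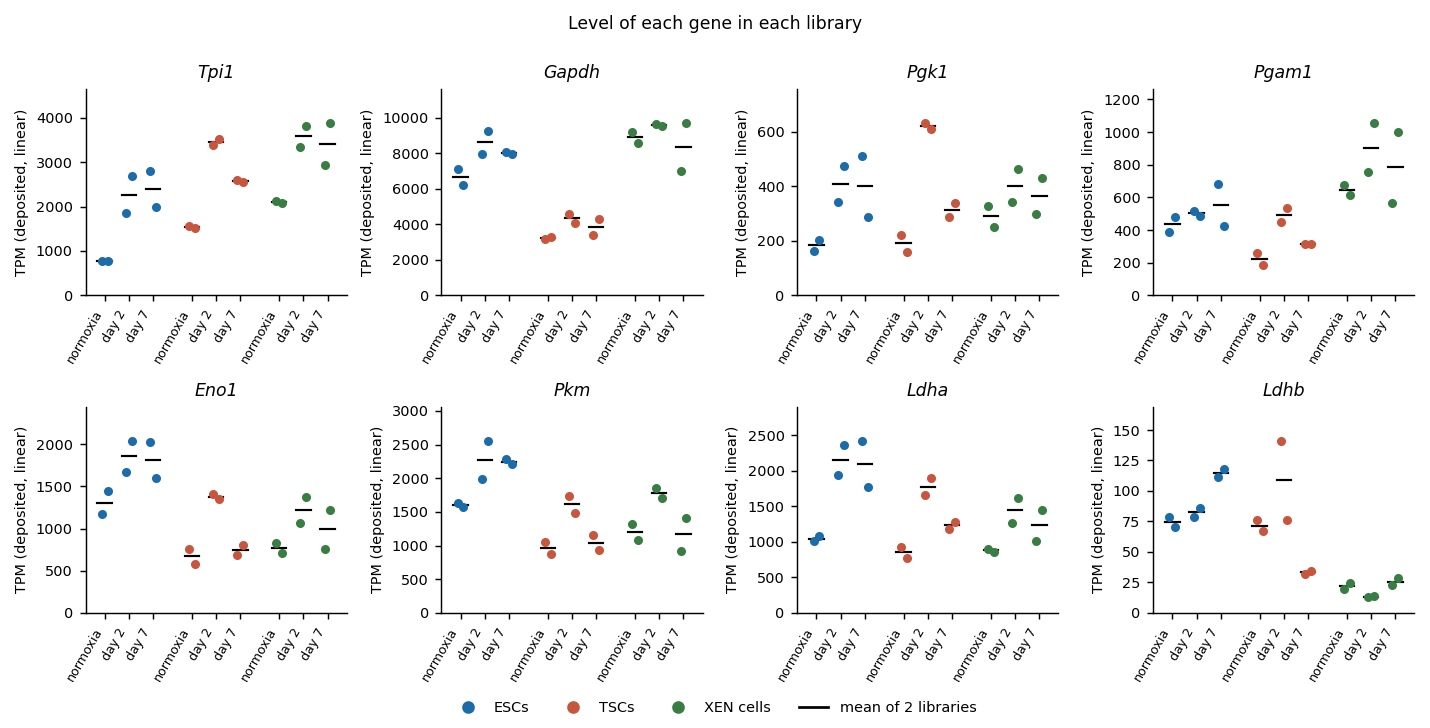
Deposited TPM of the 8 genes (linear axis from 0, a separate scale for each gene) by cell type and condition. Points are the 2 libraries of a group and black lines their mean; on day 2 both hypoxic libraries lie above both normoxic ones for every gene except Ldhb in XEN cells.

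The first question was how the genes responded to hypoxia within each cell type. Fold changes and standard errors (SE) below are on the scale of log2(TPM + 0.5) from limma, p-values are Benjamini-Hochberg adjusted over all genes tested, and DE means an adjusted p at or under 0.1 with a fold change over 1.5. Both days were compared with the same normoxic libraries. With 2 libraries against 2, an exact permutation test of a single gene cannot go below p = 0.333.

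Tpi1, which interconverts the triose phosphates, had 775 and 764 TPM in normoxic ESCs, 1848 and 2687 on day 2 and 2806 and 1997 on day 7. In TSCs it had 1571 and 1523, then 3388 and 3527, then 2609 and 2549. In XEN cells it had 2121 and 2073, then 3342 and 3822, then 2933 and 3876. Every hypoxic library thus lay above every normoxic library of its cell type. The log2 change was 1.53 ± 0.22 (SE) on day 2 and 1.62 ± 0.22 on day 7 in ESCs, where day 7 was DE (adjusted p = 0.0222) and day 2 was not (0.215). In TSCs the values were 1.16 ± 0.18 and 0.74 ± 0.18 and in XEN cells 0.77 ± 0.19 and 0.69 ± 0.19, none of them DE.

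Pgk1, which makes the first ATP of the lower pathway, had 164 and 201 TPM in normoxic ESCs, 341 and 474 on day 2 and 511 and 289 on day 7. In TSCs it had 223 and 158, then 629.7 and 609, then 285 and 339. The day 2 libraries of TSCs stood well above all others of that cell type, and the change of 1.72 ± 0.22 (log2, a 3.29-fold increase) was DE (adjusted p = 0.0757). It was no longer DE with median-ratio scaling, which divides each library by the median ratio of its genes to a reference (adjusted p = 0.121), or when any 1 of the hypoxic TSC libraries was left out. By day 7 Pgk1 had fallen by 0.99 from day 2 in TSCs (adjusted p = 0.0428). In ESCs the changes of 1.14 ± 0.27 and 1.08 ± 0.27 were not DE, and in XEN cells, with 326 and 252 TPM in normoxia, 341 and 462 on day 2, then 299.6 and 432 on day 7, the day 7 libraries overlapped the normoxic ones.

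Ldha, which reduces pyruvate to lactate, had 1011 and 1080.0 TPM in normoxic ESCs, 1948 and 2362 on day 2 and 2422 and 1767 on day 7. In TSCs it had 930.1 and 770.3, then 1655 and 1897, then 1179.5 and 1286. In XEN cells it had 900.1 and 861, then 1264 and 1624, then 1013 and 1454. As for Tpi1, no hypoxic library overlapped the normoxic ones. Ldha was DE in ESCs on day 7, at 0.99 ± 0.18 (log2, 1.98-fold, adjusted p = 0.0813), and had a like value on day 2 (1.04 ± 0.18) that was not DE (adjusted p = 0.297). In TSCs it changed by 1.07 ± 0.20 and 0.54 ± 0.20 and in XEN cells by 0.70 ± 0.22 and 0.46 ± 0.22, none of which passed the test.

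Eno1, Pkm and Pgam1 catalyse the steps after Pgk1. Eno1, the main enolase of dividing cells, had 1167 and 1445 TPM in normoxic ESCs, 1676 and 2041 on day 2 and 2024 and 1605 on day 7. In TSCs it had 760.4 and 577, then 1411 and 1349, then 689 and 801, so that the day 7 libraries overlapped normoxia. From day 2 to day 7 it fell by 0.89 in TSCs, which was DE (adjusted p = 0.0480). With the reads of Eno1 and Eno1b summed, the change from normoxia to day 2 was 0.51 (ESCs), 1.06 (TSCs) and 0.60 (XEN cells) on a log2 scale, against 0.51, 1.06 and 0.66 for Eno1 alone. In XEN cells Eno1 ran from 707 to 830.4 TPM in normoxia, 1063 to 1380.2 on day 2 and 760.1 to 1219 on day 7.

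Pkm, which forms pyruvate, lay above normoxia without overlap on day 2 in all 3 cell types. It had 1637 and 1577 TPM in normoxic ESCs and 1989 and 2555 on day 2. In TSCs it had 1051 and 879.8, then 1739.9 and 1488, and in XEN cells 1319 and 1082, then 1856 and 1713. On day 7 it had 2282 and 2205 TPM in ESCs, still above normoxia, but overlapped normoxia in TSCs (1149 and 938) and XEN cells (923 and 1407). Pgam1, the phosphoglycerate mutase, had 386 and 482 TPM in normoxic ESCs and 518 and 488 on day 2, a change of 0.22 ± 0.22. In TSCs it went from 260.2 and 186 to 447 and 536 TPM, a larger change of 1.15 ± 0.22, and in XEN cells from 675 and 613 to 753 and 1053, a change of 0.47 ± 0.29. None of the changes of Pkm or Pgam1 within a cell type was DE.

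Gapdh changed least of the 6 glycolytic enzymes on day 2 in TSCs and XEN cells, by 0.43 ± 0.22 and 0.11 ± 0.21, and by 0.37 ± 0.17 in ESCs. Its levels ran from 6194 to 7079.5 TPM in normoxia and from 7937 to 9266 in hypoxia in ESCs. In TSCs they ran from 3154 to 3289 and from 3421 to 4598, again without overlap. In XEN cells they ran from 8593 to 9188 and from 6977 to 9669, and on day 7 the difference was -0.11 ± 0.21.

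Ldhb, the B subunit, did not share these patterns. It had 78.6 and 70.7 TPM in normoxic ESCs, 78.8 and 86.2 on day 2 and 111 and 118 on day 7, a day 7 change of 0.62 ± 0.13 (adjusted p = 0.118). In TSCs it had 75.8 and 67.2 TPM in normoxia, 141 and 76.3 on day 2, then 32.2 and 34.0 on day 7. The day 2 change was 0.54 in TSCs and 0.096 without the library at 141 TPM, and the lower day 2 library of both ESCs and TSCs cleared normoxia by less than the counting error of a library. The day 7 libraries of TSCs were the lowest of that cell type, at a change of -1.10 ± 0.29 from normoxia (adjusted p = 0.265), and the fall from day 2, by 1.64 (SE 0.29), was DE (adjusted p = 0.0284). Without the first day 2 library of TSCs, the one at 141 TPM, that fall was 1.19 and not DE. In XEN cells Ldhb had 19.2 and 24.8 TPM in normoxia, 12.9 and 13.7 on day 2, then 22.5 and 28.9 on day 7, so that it was below normoxia on day 2 (-0.69 ± 0.21, adjusted p = 0.517) and overlapped it on day 7.

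**Figure D2:**
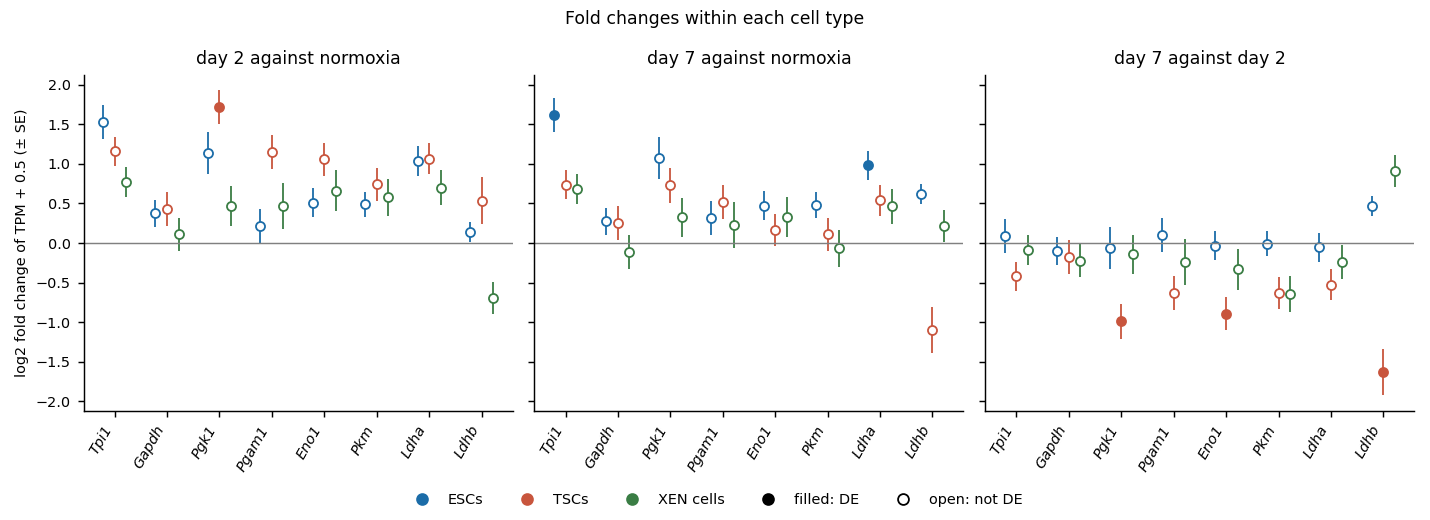
Log2 fold changes of TPM + 0.5 (points, vertical axis) with their limma SE (bars) for the 8 genes in each cell type and comparison; filled points are DE. Points lie above 0 on day 2 except Ldhb in XEN cells, and all points of TSCs lie below 0 between day 7 and day 2 (with median-ratio scaling Gapdh was at 0.11), where Pgk1, Eno1 and Ldhb were DE.

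On day 2, 0 of the 8 genes were DE in ESCs, 1 in TSCs (Pgk1) and 0 in XEN cells, where the DE share of all genes was 0% of 12271, 0.2% of 12481 and 0% of 10894. At an unadjusted p under 0.05, limma gave 5 genes (ESCs), 6 (TSCs) and 5 (XEN cells), and voom, limma's method for read counts, run on reads recovered from the TPM, called 0, 1 and 0 of them DE. Without the first day 2 library of ESCs, 4 of the genes (Tpi1, Pgk1, Pkm and Ldha) were DE in ESCs on day 2. Both hypoxic libraries lay above both normoxic ones for all 8 genes in ESCs and in TSCs and for 7 of them in XEN cells, against 16.4%, 30.6% and 19.6% of all genes tested. The median change of the 8 genes was 0.50 (ESCs), 1.06 (TSCs) and 0.52 (XEN cells) on a log2 scale, beside medians of 0.01, 0.07 and -0.01 over all genes.

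On day 7, 2 of the 8 genes were DE in ESCs (Tpi1 and Ldha, against 0.758% of all genes), 0 in TSCs (0.385%) and 0 in XEN cells (0.11%). In TSCs and XEN cells, limma gave 5 and 1 of the genes at an unadjusted p under 0.05, and voom called 0 in each. In ESCs the count fell to 0 with the replicate number as a block, without either normoxic library or without the first day 7 library, and rose to 4 without either day 2 library. The libraries lay above normoxia without overlap for 7 genes (ESCs), 5 (TSCs) and 2 (XEN cells), against 23%, 8.98% and 17.5% of all genes. The median change was 0.55 (ESCs), 0.39 (TSCs) and 0.28 (XEN cells), beside 0.02, -0.18 and -0.03 over all genes. In XEN cells on day 7, the second replicate was higher than the first for all 8 genes, by a median factor of 1.44. Without the first of these libraries the median change was 0.61 and without the second 0.01.

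Day 7 was also compared with day 2. In TSCs 3 of the 8 genes were DE (Pgk1, Eno1 and Ldhb) and all 3 were lower on day 7, against 16.2% of all genes that were DE and 13.8% that were DE and lower. Both day 7 libraries lay below both day 2 libraries for 7 genes in TSCs, all but Gapdh, against 44.9% of all genes. The median was -0.63 for the 8 genes and -0.24 for all genes. Median-ratio scaling, which removes the shift of all genes, brought the median of the 8 genes to -0.36, left Ldhb as the 1 DE gene and turned the value of Gapdh from -0.17 to 0.11. Under that scaling the DE genes of TSCs were 724 higher and 982 lower, in place of 296 and 1723. No gene of the 8 was DE between the days in ESCs (0.179% of all genes were) or XEN cells (0.0367%), where limma gave 1 and 2 at an unadjusted p under 0.05 and voom called 0.

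The count in TSCs was 0 when the first day 2 library or either day 7 library was left out, 2 without the second day 2 library and 4 without either normoxic library. The summed TPM of the 6 TSC markers was 1114 and 1210.0 in normoxia, 1221 and 1291 on day 2, then 776 and 701 on day 7, and 4 of the 6, led by Elf5, Cdx2 and Eomes, were DE and lower on day 7 than on day 2. The change of 1 of the 6 was above 0. The 5 ESC markers in the TSC table summed to 841 and 872 TPM in normoxia, to 1247 and 1289 on day 2 and to 293 and 248 on day 7, and 4 of them were DE and lower on day 7 than on day 2, with a median log2 change of -1.91. Of all genes tested in TSCs, 13.8% were DE and lower between those days. The feeder markers also differed between TSC libraries, as given above. The part of these markers in the changes of the 8 genes was not tested. With any 1 library of TSCs left out, the median log2 change of the 8 genes on day 2 ran from 0.89 to 1.19.

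Averaged over the 3 cell types, where each change was taken within its own table, 5 of the 8 genes were DE and higher on day 2, against 0.625% of 10081 genes. These were Tpi1 (1.15 ± 0.11, adjusted p = 0.000343), Pgk1 (1.11 ± 0.16, 0.00404), Ldha (0.93 ± 0.12, 0.00145), Eno1 (0.74 ± 0.13, 0.0213) and Pkm (0.60 ± 0.12, 0.0347). Pgam1 had 0.61 ± 0.16 (adjusted p = 0.146), Gapdh 0.30 ± 0.10 (0.279) and Ldhb -0.0044 ± 0.13 (0.996). On day 7, 3 genes were DE and higher, against 1.07% of all genes. They were Tpi1 (1.01 ± 0.11, adjusted p = 0.000849), Ldha (0.66 ± 0.12, 0.0196) and Pgk1 (0.71 ± 0.16, 0.0562). Over 20 other settings, Tpi1, Pgk1, Ldha and Eno1 on day 2 and Tpi1 on day 7 were DE in all 20, Ldha on day 7 in 19, Pgk1 on day 7 in 13 and Pkm on day 2 in 11. Ldha on day 7 was lost without the second day 7 library of XEN cells. Pgk1 on day 7 was lost with the replicate block and without either normoxic or the first day 7 library of ESCs, the second normoxic or second day 7 library of TSCs, or the second normoxic library of XEN cells. Pkm on day 2 was lost with median-ratio scaling, with voom, and without either normoxic or the second day 2 library of ESCs, the second normoxic or first day 2 library of TSCs, or the second normoxic or first day 2 library of XEN cells. On day 2, 7 of the 8 genes, all but Ldhb, were above normoxia without overlap in all 3 cell types at once, as were 1.34% of all genes. On day 7 this held for Tpi1 and Ldha and for 0.655% of all genes.

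The share of a library's reads taken by the 8 genes together was also measured. In ESCs it was 0.914% and 0.968% in normoxia, 1.32% and 1.53% on day 2, then 1.49% and 1.31% on day 7. In TSCs it was 0.583% and 0.538%, then 1.05% and 1.02%, then 0.6996% and 0.845%. In XEN cells it was 0.855% and 0.759%, then 0.994% and 1.11%, then 0.733% and 1.04%. The mean share on day 2 was thus 1.52, 1.85 and 1.30 times that in normoxia in ESCs, TSCs and XEN cells without overlap of libraries, and on day 7 it was 1.48, 1.38 and 1.10 times, with overlap in XEN cells only.

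**Figure D3:**
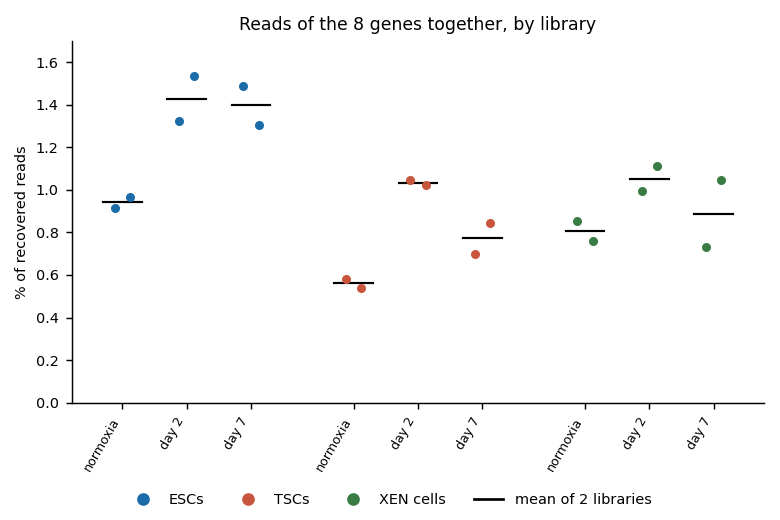
Percent of all recovered reads of a library (vertical axis, from 0) that fell on the 8 genes, by cell type and condition. Points are libraries and lines are means of 2; TSCs were lowest in normoxia at 0.538% and 0.583% and reached 1.02% and 1.05% on day 2.

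The second question was the balance of the lactate dehydrogenase subunits, which was measured as the ratio of Ldha to Ldhb within a library, so that the scaling of the table cancels. Per exon base, Ldha was 4.88 and 5.79 times Ldhb in normoxic ESCs, 9.37 and 10.4 times on day 2 and 8.25 and 5.68 times on day 7. In TSCs the ratio was 4.65 and 4.35 in normoxia, 4.45 and 9.42 on day 2, then 13.9 and 14.3 on day 7. In XEN cells it was 17.8 and 13.2 in normoxia, 37.3 and 44.8 on day 2, then 17.1 and 19.1 on day 7. The ratio in XEN cells on day 2 was above that of every other library, and the day 2 libraries of TSCs differed from each other, on a log2 scale, more than the replicates of any other group.

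Over 5 exact two-sided permutation tests within strata, each with 216 arrangements and a smallest possible p of 0.00926, the log2 ratio was lower in ESCs than in XEN cells, at means of 2.83 and 4.49 (difference -1.66, p = 0.00926, adjusted p = 0.0231 over the 5 tests). It was also lower in TSCs than in XEN cells, at 2.89 and 4.49 (difference -1.59, p = 0.00926, adjusted 0.0231 in the same exact test). Between ESCs and TSCs the difference of -0.07 did not pass (exact p = 0.861), and leaving out 1 library moved it from -0.25 to 0.12. Against normoxia the ratio was higher by 0.95 on day 2 (1.93-fold, exact p = 0.0185, adjusted 0.0309) and by 0.75 on day 7 (1.68-fold, exact p = 0.0370, adjusted 0.0463), averaged over the cell types. Whether these changes differed between cell types was not tested for the ratio. The study's methods name a single source for each cell type, so these tests do not measure spread between lines. On day 2 the ratio was above normoxia without overlap in ESCs (1.86-fold) and XEN cells (2.67-fold) and overlapped normoxia in TSCs (1.44-fold), whereas on day 7 it was above normoxia without overlap in TSCs (3.14-fold) and overlapped it in ESCs (1.29-fold) and XEN cells (1.18-fold). In all of these both Ldha libraries lay above normoxia, and both Ldhb libraries lay below it in XEN cells on day 2 and in TSCs on day 7.

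**Figure D4:**
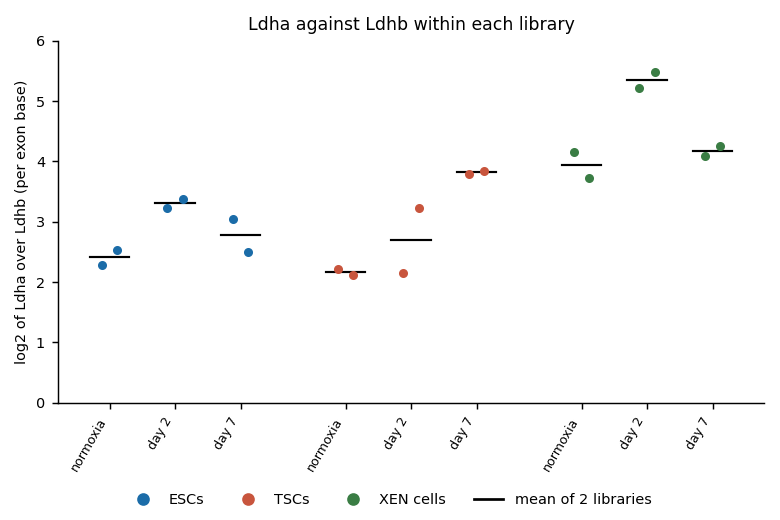
Log2 of the ratio of Ldha to Ldhb, each per exon base, in every library (points) with the mean of 2 (lines). XEN cells on day 2 are highest at a mean of 5.35, and in TSCs the day 7 libraries (mean 3.82) lie above the normoxic ones (mean 2.17).

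Whether the change of Ldhb itself differed between cell types was tested as a limma contrast of the changes over all 18 libraries, a test added after the values were seen. On day 7 the change in TSCs was below that in ESCs (-1.72 ± 0.33, adjusted p = 0.0492) and the change in XEN cells was above that in TSCs by 1.32 ± 0.33 (adjusted p = 0.0927). On day 2 the change in XEN cells was below that in TSCs (-1.23 ± 0.33, adjusted p = 0.0908). Over 19 other settings (another scaling, or 1 of 18 libraries left out) the sign held in these 3 contrasts, and they passed in 12, 4 and 4 of the settings. These 3 contrasts passed for 0.655%, 1.35% and 2.64% of 10081 genes, in the order given. No other gene of the 8 passed in any of the 6 contrasts between cell types, of which those of TSCs with ESCs on day 2 and of XEN cells with ESCs on days 2 and 7 passed for 0.0198%, 0% and 0.0397% of all genes. Without the first day 2 library of TSCs, the contrast of XEN cells with TSCs on day 2 was -0.79 (adjusted p = 0.334). The changes are each relative to normoxia within a table, and here too each cell type came from a single source.

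To describe how the genes moved together, the deviation of log2(TPM + 0.5) from the mean of the cell type was correlated over the 18 libraries. The libraries share their cell type's mean and, within a group, their condition, so these values are descriptions. The 21 pairs without Ldhb had Pearson r from 0.62 (Gapdh and Pgam1) to 0.96 (Tpi1 and Ldha), with a median of 0.79. The 7 pairs with Ldhb ran from 0.14 to 0.33. Against the mean of the other 7 genes, Pgk1, Eno1 and Ldha had r = 0.96, 0.94 and 0.93 and Ldhb had 0.24, which was 0.59 (ESCs), 0.39 (TSCs) and -0.41 (XEN cells) over 6 libraries each.

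**Figure D5:**
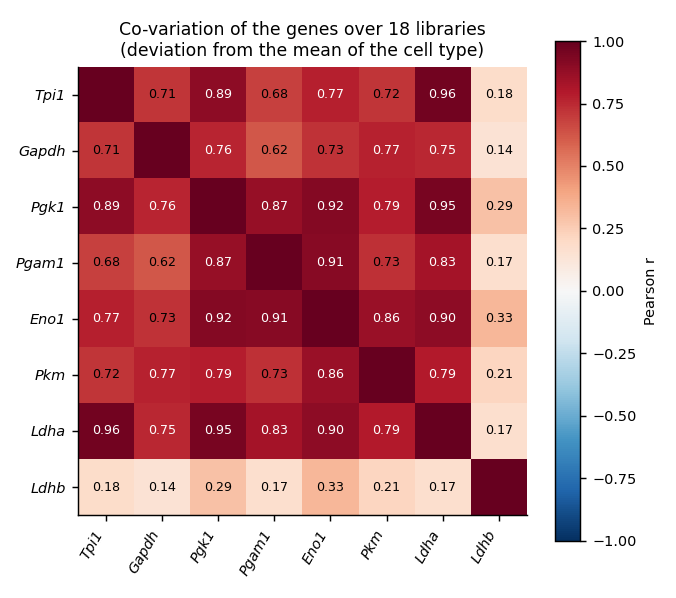
Pearson r between each pair of the 8 genes over 18 libraries, after the mean of the cell type was taken from each gene; red is positive and the scale runs from -1 to 1. The row of Ldhb is pale, with r between 0.14 and 0.33, and all other pairs lie at 0.62 or above.

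Of 10073 other genes tested in all 3 cell types, those whose deviations were most like the mean of the 8 were Pfkl (r = 0.97), the liver-type phosphofructokinase, Egln1 (0.95), a prolyl hydroxylase that marks HIF-alpha subunits for degradation, Aldoa (0.94), an aldolase, Fam162a (0.93) and Eno1b (0.92), over 18 libraries. Eno1b shares 64.2% of the 75-base stretches of Eno1, so its likeness is not independent of Eno1.

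Genes around the 8 in the pathway were counted by list. Of 9 genes of upper glycolysis, 8 were tested in each cell type, and averaged over cell types 5 were DE and higher on day 2 and 3 on day 7, led by Aldoc (2.04 ± 0.20 on day 2) and Pfkl (1.27 ± 0.15). Within cell types, Pfkl was DE in ESCs on day 7 (1.29 ± 0.19), Aldoc and Pfkl were DE in TSCs on day 2 (3.56 ± 0.36 and 1.65 ± 0.18), and in TSCs 5 of the 8 were DE and lower on day 7 than on day 2, against the 13.8% of all genes given above. Of 7 tested genes of glucose, pyruvate and lactate transport, 3 were DE and higher on day 2 on average, namely the lactate exporter Slc16a3 (1.83 ± 0.19) and the glucose transporters Slc2a3 (1.28 ± 0.24) and Slc2a1 (0.99 ± 0.16), and 2 on day 7. Of 10 tested genes of pyruvate dehydrogenase and its regulators, Pdk1, a kinase that inhibits the complex, was the 1 DE gene on average on each day (1.10 ± 0.15 and 0.80 ± 0.15). In TSCs alone Pdk1 was DE on day 2 at 2.47 ± 0.19. In ESCs and in XEN cells 0 genes of this list were DE on day 2, and 0 had an unadjusted limma p under 0.05. Of 10 genes of the NADH shuttles, limma called 0 on average on either day, with 0 on day 2 and 3 on day 7 at an unadjusted p under 0.05 and 0 called by voom. Of 11 tested hypoxia reference genes, 7 were DE and higher on average on day 2 and 5 on day 7. Bnip3 was at 2.00 ± 0.24 and Egln3 at 1.52 ± 0.21 on day 2.

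Of 13 isozymes and paralogs of the 8 genes, 10 were tested in ESCs and 7 each in TSCs and XEN cells. The testis-specific Ldhc had at most 3.17 TPM in ESCs. In ESCs on day 7, 1 was DE by limma, the muscle mutase Pgam2 (0.90 ± 0.18, adjusted p = 0.0951), beside 0.758% of all genes. There voom called 0. In TSCs the neuronal enolase Eno2 rose from 17.0 and 10.2 TPM in normoxia to 62.6 and 56.3 on day 2 (2.13 ± 0.27, adjusted p = 0.0757) and had 11.1 and 11.2 on day 7. It was the 1 DE gene of the 7 tested on day 2, beside 0.2% of all genes. From day 2 to day 7 it fell by 2.36 (adjusted p = 0.0138). Between those days Eno3 and Eno1b were also DE and lower in TSCs, which made 3 of the 7 tested there, again beside 13.8% of all genes. Of these 7, voom called 1.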

How the data were processed

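Total RNA of the 18 cultures was sequenced in bulk. The authors deposited TPM in a table for each cell type, scaled to 1000000 per library. Per their methods, reads were trimmed (cutadapt 2.4), aligned to mm10 (STAR 2.7.5a) and counted with featureCounts on GENCODE VM19. They kept coding genes that passed 0.4 CPM in 2 or more of 6 libraries. Columns labelled as day 0 were taken as normoxia, and 0 columns were left unmapped. Multiplied by the span of the gene (GENCODE VM21), 98.7% to 98.9% of values in a library lay within 0.05 of a whole multiple of a common step, which gave back reads, whole for all 8 genes in all libraries. Division by span affects levels between genes and, through a library's TPM total, shifts the changes of all genes together: in TSCs the median of all genes on day 7 was -0.18, and -0.06 with voom on recovered reads.

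The log2 of TPM plus 0.5 was modelled in R 4.3.3 with limma 3.58.1, using the 6 libraries of each cell type, or all 18 for means over cell types, with Benjamini-Hochberg adjustment over all genes tested. The authors tested counts with edgeR, which was not run here. The main test used the deposited TPM, and voom on recovered reads was an alternative. At the same thresholds the paper reports DE genes in ESCs and XEN cells on day 2, where limma called 0 of all genes. Ratios were tested with exact permutations (scipy 1.17.1). Fits were tested on simulated data with 200 changed genes. Biological replicates are as stated in the study's methods. Neither source says that equal replicate numbers share a culture, so no block was used. The named genes were the 8 genes, at most the 3 largest DE changes per list and direction, and the 5 other genes most like the mean of the 8; Ldhc was named after its values were seen. The members and lists were chosen with earlier results of these data known. Alternatives were other pseudocounts, filters, scaling, thresholds, voom, 4-library fits, a replicate block and leaving out each library. The paper's other data were not analysed here.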

Additional observations from a re-analysis of the deposited data

Results flagged for a closer look

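Ldhb is listed because its libraries moved in opposite directions in different cell types. The contrasts below were added after these values were seen, and their p-values are adjusted over genes within each contrast, not over the contrasts. On day 7 both ESC libraries lay above both normoxic ones (log2 change 0.62) and both TSC libraries lay below (-1.10), and the contrast of these changes passed in limma (adjusted p = 0.0492, as for 0.655% of all genes) and in 12 of 19 other settings. On day 2 both libraries lay above normoxia in ESCs (0.14) and TSCs (0.54) and below it in XEN cells (-0.69). The TSC value was 0.096 without the first day 2 library, and in both ESCs and TSCs the lower day 2 library cleared normoxia by less than the counting error of a library. Of these, the contrast of XEN cells with TSCs passed (adjusted p = 0.0908, as for 2.64% of all genes, and in 4 of 19 other settings). Without the first day 2 library of TSCs it was -0.79 (adjusted p = 0.334). The contrast of XEN cells with ESCs did not pass (adjusted p = 0.999), nor did it for any other of 10081 genes.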

How the results depend on the processing

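The number of the 8 genes that were DE in ESCs on day 7 was 2, and it was 1 with median-ratio scaling, with no filter, with no mean-variance trend or at an adjusted p of 0.05, 4 with the 4 libraries compared only, 3 with voom and 0 with the replicate block. Of all 12271 genes tested, 93 were DE there in the main fit, 70 with median-ratio scaling and 111 with voom. With the 4 libraries compared only they were 320, and with the replicate block 18. In TSCs on day 2, 1 of the 8 genes was DE, and 0 with median-ratio scaling, no filter, no mean-variance trend, the 4 libraries compared only, the replicate block or an adjusted p of 0.05. The deviations of same-numbered libraries correlated at -0.46 there, and with the numbers of one group swapped, a block added after seeing the data, 5 of the 8 genes were DE. Of all 12481 genes tested there, 25 were DE in the main fit and 326 with the swapped block. They were 15 with median-ratio scaling, 3 with the replicate block and 0 with the 4 libraries compared only. Between day 7 and day 2 in TSCs, 3 of the 8 genes were DE, and 1 with median-ratio scaling, beside 2019 and 1706 of all genes. Median-ratio scaling also moved the median of the 8 genes in TSCs from 0.39 to 0.58 on day 7 and from -0.63 to -0.36 between the days, since it sets the median of all genes near 0. It turned Gapdh in TSCs between the days to 0.11, and a pseudocount of 1 turned Ldhb on day 2, averaged over cell types, to 0.00080.

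With 1 library left out, the count lay between 0 and 4 in ESCs on either day, from 0 to 1 in TSCs on day 2 and from 0 to 4 between the days in TSCs. The median of the 8 genes ranged from -0.19 to 0.25 (ESCs, day 7 against day 2), 0.89 to 1.19 (TSCs, day 2), 0.015 to 0.61 (XEN cells, day 7) and -0.48 to 0.069 (XEN cells, day 7 against day 2). Single values that changed sign were on day 7 Pgam1 in ESCs (-0.022 to 0.66), Eno1 (-0.033 to 0.36) and Pkm (-0.035 to 0.26) in TSCs, and Gapdh (-0.35 to 0.12), Pgam1 (-0.18 to 0.64), Eno1 (-0.011 to 0.67) and Pkm (-0.37 to 0.24) in XEN cells, and on day 2 Ldhb averaged over cell types (-0.15 to 0.14). The difference of the Ldhb change between TSCs and ESCs on day 2 ranged from -0.048 to 0.83, and the log2 ratio of Ldha to Ldhb between ESCs and TSCs from -0.25 to 0.12. With the replicate block in limma, Tpi1 (adjusted p = 0.104) and Ldha (0.229) in ESCs on day 7 were no longer DE. Nor were Pgk1 in TSCs on day 2 (0.203) and Pgk1 averaged on day 7, while Pkm in TSCs between the days became DE. The ratios of Ldha to Ldhb between XEN cells and the others, and between hypoxia and normoxia, kept their sign in each of these. The cause of the changes under the other settings was not tested.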
